A study of Mus musculus with 33 samples.

Results

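The comparison set the main olfactory epithelium (MOE) of Dnmt3a null mice (KO, homozygous null) against that of wild-type mice (WT), each genotype taken once after water and once after odor. Its members were the 4 RNA libraries of whole MOE whose genotype was KO or WT, out of 33 samples in the series: KO water, KO odor, WT water and WT odor. The 2 libraries of heterozygous-null mice (Het) stand beside them and entered the model that estimated the spread. All mice were 3 weeks old, spent 10 min in a bare dark cage, and then 60 min with paper that carried 80 µL of either water or the odorants amyl acetate, acetophenone and octanal in equal parts, called odor here. Each of the 6 libraries was made from 100 ng of RNA with the NuGEN Encore Complete kit. The labels do not name a Cre driver, the part of Dnmt3a that was removed, the sex of the mice or the number of mice behind a library. With 1 library for each genotype and treatment, a genotype difference could be checked only by whether it was met with water and with odor. Any p-value or standard error rests on how far the genotype differences, those of Het included, varied between water and odor, not on replicates.

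Dnmt3a is a de novo DNA methyltransferase: it adds methyl groups to cytosines that did not carry them, mostly where a cytosine precedes a guanine, and it remains active in neurons after birth. The MOE is the sheet of tissue in the nose that detects odors. It holds mature olfactory sensory neurons, each of which expresses a single odorant receptor gene, the immature neurons and basal cells that replace them, sustentacular support cells, microvillous cells, glands, vessels and resident immune cells. Values are on the deposited RPKM scale, a read density corrected for gene length and library depth. A log2 difference is log2(KO value + 0.5) minus log2(WT value + 0.5) within a treatment, and an estimate is the mean of the water and odor differences ± its standard error from limma.

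The recovered reads numbered 9410063 to 17639584 per library. Omp, the defining marker of mature sensory neurons, was present in every library, at 3296 with water and 5752 with odor in KO, 1582 and 249 in Het, and 5962 and 2717 in WT. Transcripts of other tissues were present to an unequal degree. Over 19 genes of brain neurons and glia, a list drawn up after values had been seen, the median value was 7.98 with water and 34.0 with odor in KO, 71.6 and 117 in Het, and 47.6 and 2.18 in WT. The enamel gene Ambn was 116 and 2.43 in KO, 31.7 and 12.9 in Het, and 35.5 and 679.6 in WT. Myh1, a myosin of skeletal muscle, was 3.06 and 73.2 in KO, 1.43 and 0.945 in Het, and 0.541 and 0.215 in WT, so KO odor stood apart in muscle genes, WT odor in tooth genes, and KO water and WT odor were lowest in brain genes. In bulk tissue, fewer cells of a type and less RNA per cell cannot be told apart.

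Dnmt3a itself was lower in KO and was still counted, at 56.1 with water and 48.4 with odor in KO, 50.3 and 66.6 in Het, and 84.4 and 89.01 in WT. Both KO libraries lay below both WT libraries, with log2 differences of -0.58 with water and -0.87 with odor and an estimate of -0.73 ± 0.24 (limma adjusted p = 1). Reads over any part of the gene that was not removed are included. In sorted mature sensory neurons, for which the files give 1 pooled value per genotype, Dnmt3a was 56.2 in KO, 120 in Het and 175 in WT; there the KO libraries were made with the NuGEN kit and the WT libraries with another (ScriptSeq), so kit and genotype cannot be told apart. Of the 10 tested genes nearest to Dnmt3a by gene order, estimates ran from -0.08 for Rab10, a small GTPase, to 0.23 for Cenpo, a kinetochore subunit. The other DNA methyltransferases were near WT: Dnmt1, the maintenance enzyme, was 220 and 217 in KO, 214 and 400.3 in Het, and 222 and 238 in WT, and Dnmt3b, the other de novo enzyme, was 0.810 and 0.8998 in KO, 0.791 and 0.860 in Het, and 1.19 and 0.627 in WT.

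The difference between genotypes seen with water was mostly not met again with odor. Among 14602 genes tested, limma called 0 at an adjusted p under 0.05 (0.0%), and voom on the recovered reads also called 0. Without adjustment, 185 genes higher in KO (1.27%) and 141 lower (0.966%) had a limma p under 0.05. A total of 564 genes were at least 2-fold higher in KO with water and 910 with odor, and 839 and 659 were at least 2-fold lower. Only 78 genes (0.534%) were at least 2-fold higher in both treatments and 54 (0.37%) at least 2-fold lower in both, while 413 were at least 2-fold apart in opposite directions, among them 94 odorant receptors. A difference of any size on the same side of WT in both treatments was met in 6019 genes (41.2%), 2951 higher (20.2%) and 3068 lower (21.0%). Both KO libraries lay above both WT libraries in 12.4% of genes and below both in 13.3%. The water and odor differences had a Pearson correlation of -0.27 across all genes, which are not independent replicates and share the 4 libraries.

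**Figure D1:**
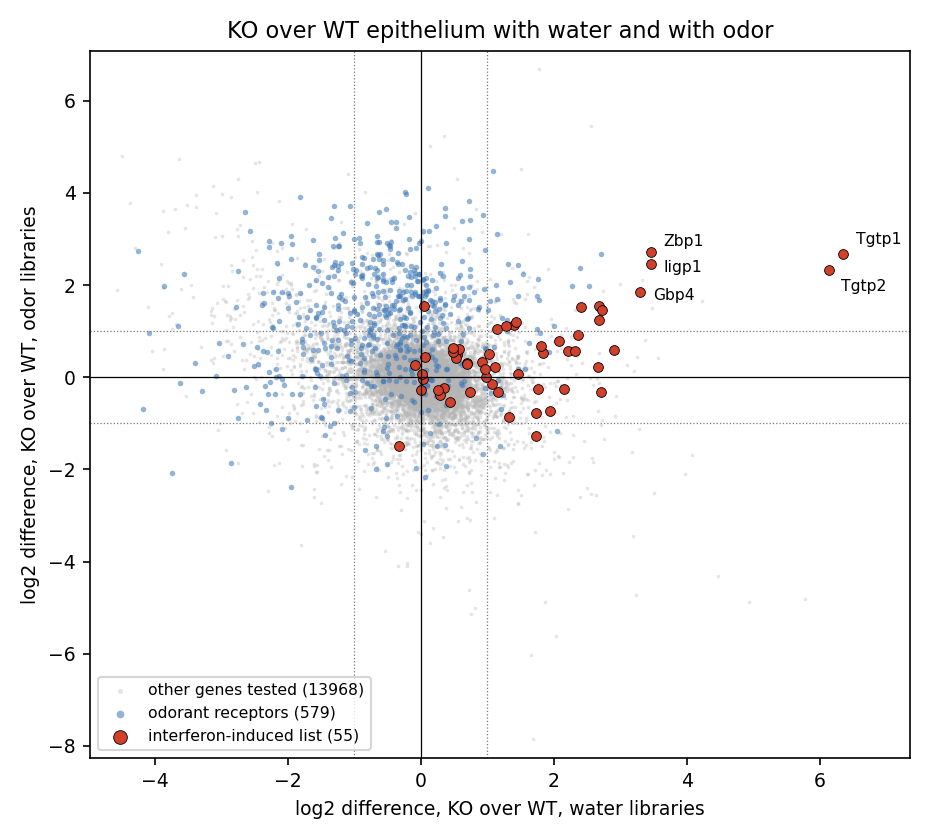
KO over WT log2 difference in the water libraries (horizontal axis) against that in the odor libraries (vertical axis), 1 point for each of the 14602 genes tested. Interferon-induced genes (55) reach the upper right, with Iigp1 at 3.46 and 2.46, while odorant receptors (579) have a median of -0.48 with water and 1.27 with odor.

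Interferon-induced genes were among those higher in KO in both treatments. Interferons are secreted signals of infection. Type I interferons act through receptors and kinases on DNA elements called interferon-stimulated response elements, and interferon gamma acts mainly on gamma-activated sites. Of a list of 60 such genes, 55 were tested: 37 were higher in KO in both treatments (20.2% of all genes; the percentage after a count gives the share of all tested genes that met the same criterion) and 1 was lower in both (21.0%). At least 2-fold higher in both were 13 (0.534% of all genes), and 32 had both KO libraries above both WT libraries (12.4%). None passed limma's test (0.0%), and 16 of those higher in KO (1.27%) and 0 of those lower (0.966%) had an unadjusted p under 0.05. The median difference of the 55 was 1.28 with water and 0.42 with odor, against -0.01 and 0.00 for all genes. Of the 78 genes at least 2-fold higher in both treatments, 13 (16.7%) were on this list and 24 were receptors, among them 22 odorant receptors, or 3.8% of the 579 tested. Leaving out receptors and genes with a mean under 50 reads left 18 genes, of which 11 were on the list. That mean was taken over the KO and WT libraries, so genes high in KO passed more easily. Tgtp1, for example, had 248 and 88 reads in KO and 2 and 14 in WT. The list was also chosen with earlier results of these data known, so the 11 are a description only.

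Reference promoter windows are shown for Tgtp1, Tgtp2, Gbp2 and Gbp3, listed genes at least 2-fold higher in both treatments, chosen because each window holds the element. Each is RefSeq sequence of build GRCm38.p6, 5′ to 3′ on the gene's strand, from 250 bases before the annotated start to 50 after it. Capitals mark GAAANNGAAA, the core of the interferon-stimulated response element, searched on both strands.
Tgtp1, chr11:48992197-48992496, minus strand: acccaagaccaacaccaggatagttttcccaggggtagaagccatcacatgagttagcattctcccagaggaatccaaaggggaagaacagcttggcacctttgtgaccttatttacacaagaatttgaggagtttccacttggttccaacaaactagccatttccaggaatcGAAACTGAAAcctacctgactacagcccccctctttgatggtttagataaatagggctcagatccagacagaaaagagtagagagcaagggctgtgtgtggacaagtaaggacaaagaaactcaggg
Tgtp2, chr11:49064163-49064462, minus strand: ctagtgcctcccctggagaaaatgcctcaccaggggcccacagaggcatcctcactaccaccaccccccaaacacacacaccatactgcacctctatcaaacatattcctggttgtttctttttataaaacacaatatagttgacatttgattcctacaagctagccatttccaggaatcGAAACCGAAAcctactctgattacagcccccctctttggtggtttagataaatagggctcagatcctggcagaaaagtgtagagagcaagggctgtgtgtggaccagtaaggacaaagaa
Gbp2, chr3:142620413-142620712, plus strand: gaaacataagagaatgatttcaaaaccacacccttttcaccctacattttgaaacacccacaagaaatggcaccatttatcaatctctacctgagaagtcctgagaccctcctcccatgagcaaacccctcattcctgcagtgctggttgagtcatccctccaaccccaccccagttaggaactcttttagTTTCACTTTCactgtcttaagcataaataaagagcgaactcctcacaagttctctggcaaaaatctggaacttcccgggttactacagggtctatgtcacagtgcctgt
Gbp3, chr3:142559794-142560093, plus strand: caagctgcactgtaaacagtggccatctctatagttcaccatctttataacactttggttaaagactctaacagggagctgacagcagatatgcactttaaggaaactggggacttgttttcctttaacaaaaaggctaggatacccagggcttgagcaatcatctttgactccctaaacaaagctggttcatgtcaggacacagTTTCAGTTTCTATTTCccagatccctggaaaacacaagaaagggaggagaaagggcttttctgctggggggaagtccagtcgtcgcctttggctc
In Gbp3 a pair of matches overlaps. Of all 32851 windows of this length in the reference table, 3.44% held the element, and since these 4 were chosen for it they are not to be read against that share. No share over the list is given, because 69.1% of its members matched a window. The window of Oasl2 and a later window of Gbp3 held none, which says only that these letters are not in those windows. A match is a description of the sequence, not evidence of binding.

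Immunity-related GTPases (IRG) attack the vacuoles that hold intracellular microbes, and 3 of them were at least 2-fold higher in KO in both treatments. Iigp1 was 32.6 with water and 14.8 with odor in KO, 3.54 and 2.46 in Het, and 2.51 and 2.28 in WT (2.96 ± 0.46, limma adjusted p = 1). Both KO libraries lay above the other 4. Tgtp1 was 79.7 and 24.9 in KO, 11.1 and 3.57 in Het, and 0.480 and 3.48 in WT, from 248 and 88 reads in KO and 2 and 14 in WT, so no fold is given for water. Its neighbour Tgtp2 was 119 and 48.4 in KO, 24.3 and 6.56 in Het, and 1.196 and 9.29 in WT, from 297 and 137 reads in KO and 4 and 30 in WT. In both genes KO water was highest and WT water lowest. Tgtp1 and Tgtp2 are close copies, so reads may have been split or shared between them.

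Guanylate-binding proteins (GBP), a related family of interferon-induced GTPases, followed. Gbp2 was 86.5 with water and 26.98 with odor in KO, 23.2 and 18.8 in Het, and 15.8 and 9.06 in WT (1.97 ± 0.40). Gbp6 was 46.3 and 19.4 in KO, 12.1 and 7.46 in Het, and 6.61 and 6.73 in WT (2.09 ± 0.42). Gbp10, a close copy of Gbp6, was 38.9 and 18.1 in KO, 9.36 and 5.56 in Het, and 5.64 and 5.83 in WT (2.12 ± 0.42). In these 3 genes KO water was highest and the WT libraries were below every KO library. Gbp4 was 19.98 and 6.45 in KO, 3.30 and 0.659 in Het, and 1.58 and 1.42 in WT (2.58 ± 0.59), and Gbp3 was 6.72 and 10.4 in KO, 4.55 and 1.34 in Het, and 2.75 and 4.81 in WT (1.096 ± 0.67). In Gbp3 alone of these, KO odor was above KO water. Over the 16 tested GTPases, which include the Mx proteins, the median difference was 2.28 with water and 1.08 with odor. At least 2-fold higher in both treatments were 9 (0.534% of all genes), and 14 were higher in both (20.2%). Gbp9 and Ifi47 were the other two. Gbp9 was 26.97 and 5.56 in KO, 11.02 and 7.99 in Het, and 7.59 and 6.78 in WT and Ifi47, an IRG, was 15.9 and 4.32 in KO, 5.15 and 5.37 in Het, and 3.20 and 5.21 in WT, and both lay above WT with water and slightly below it with odor.

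Several genes typical of type I interferon lay above WT in both treatments. Usp18, which removes the ubiquitin-like Isg15 from proteins and damps interferon signaling, was 43.9 with water and 47.6 with odor in KO, 29.99 and 33.2 in Het, and 17.7 and 21.7 in WT (1.199 ± 0.25). Its libraries stood in the order KO, Het, WT within each treatment, without overlap. Rtp4, an interferon-induced receptor transporter, was 76.04 and 89.9 in KO, 63.9 and 36.5 in Het, and 11.5 and 37.6 in WT (1.96 ± 0.57). Oasl2, an oligoadenylate synthetase-like protein, was 16.7 and 30.5 in KO, 12.6 and 11.8 in Het, and 5.90 and 12.95 in WT (1.32 ± 0.41). Mx2, a dynamin-like antiviral GTPase, was 22.6 and 24.6 in KO, 13.5 and 9.24 in Het, and 8.26 and 11 in WT (1.26 ± 0.38). In all 3 both KO libraries lay above both WT libraries.

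Other antiviral effectors differed from WT by treatment and not in one way. Ifit3, a binding partner of Ifit1 on viral RNA, was 52.5 and 46.95 in KO, 53.4 and 31.2 in Het, and 6.54 and 31.03 in WT (1.75 ± 0.70), so WT water alone was low. Ifit1 was 169 and 282 in KO, 77.8 and 16.5 in Het, and 163 and 95.6 in WT, near WT with water and higher in KO with odor. Isg15 was 62.3 and 41.6 in KO, 14.8 and 36.4 in Het, and 27.7 and 52.1 in WT, higher in KO with water and lower with odor. Rsad2, the antiviral protein viperin, was 7.99 and 4.10 in KO, 9.33 and 14.9 in Het, and 10.2 and 12.4 in WT and was the 1 member of the 55 lower in KO in both treatments, more so with odor. Across the 13 oligoadenylate synthetase, Ifit and related effectors the median was 1.43 with water and 0.27 with odor. Of these 8 were higher in both (20.2% of all genes). Their median over both treatments was 0.80, and 0.09 among members with a mean of at least 100 reads.

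Sensors and transcription factors had smaller median differences than the GTPases, and receptors smaller still; these groups include genes outside the list of 55. Zbp1, a sensor of Z-form nucleic acid, was 11.9 and 8.12 in KO, 3.98 and 0.979 in Het, and 0.625 and 0.809 in WT, from 57 and 44 reads in KO and 4 and 5 in WT. Ddx58, the RNA sensor RIG-I, was 22 and 34.7 in KO, 22.4 and 24.2 in Het, and 15.6 and 23.5 in WT (0.52 ± 0.30). Of 13 sensors 8 were higher in both treatments (20.2% of all genes), with medians of 0.69 with water and 0.30 with odor. The median was 0.50 over both treatments, or 0.18 at a mean of at least 100 reads. Irf7, which amplifies the type I response, was 7.53 and 7.84 in KO, 3.66 and 4.81 in Het, and 1.39 and 4.32 in WT (1.44 ± 0.51). Its KO libraries lay above its WT libraries, and WT water was lowest. Of the 6 factors 4 were higher in both (20.2% of all genes). Irf8, a factor of macrophage and B cell lineages outside the list of 55, was lower in both, at 3.69 and 1.83 in KO, 5.32 and 9.32 in Het, and 5.43 and 3.84 in WT. The 10 interferon receptors, their kinases and an inhibitor had a median of 0.17 with water and 0.01 with odor; Ifnar1, a chain of the type I receptor, was 55.2 and 54.7 in KO, 52.9 and 49.5 in Het, and 61.6 and 50.9 in WT. No interferon gene itself was among the genes tested.

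**Figure D2:**
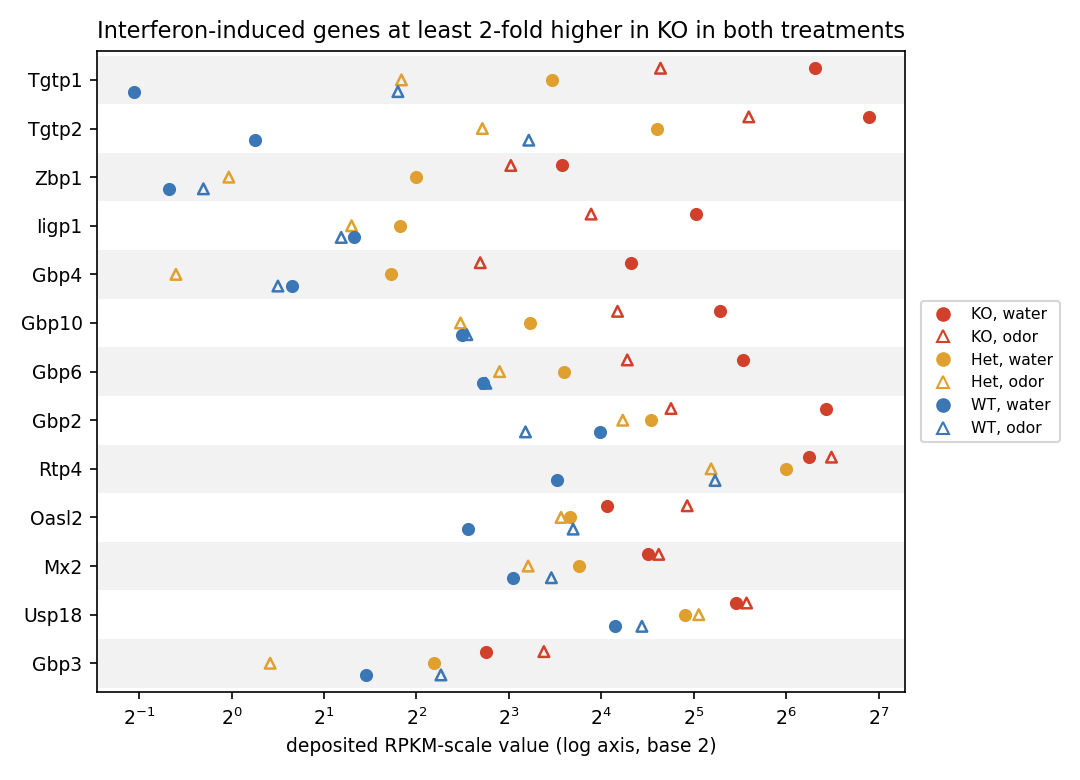
Deposited RPKM-scale values (log axis) of the 13 interferon-induced genes at least 2-fold higher in KO in both treatments, 1 point per library, by genotype and treatment. KO exceeds WT of the same treatment in every gene, as the choice of genes sets. Het water lies between KO water and WT water in all 13, a position that this choice also makes more likely.

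WT and Het libraries differed within the list as well. Odor over water had a median of 0.61 in WT and -0.21 in KO over the 55 genes, against -0.01 in WT and 0.03 in KO for all genes. Het over WT had a median of 0.67 with water and -0.06 with odor. The part that the low WT water library has in the water difference cannot be told apart from genotype. In sorted mature sensory neurons 38 members had a value, with a median of 0.19, against -0.18 for all genes there. Of these members 12 were at least 2-fold higher in KO (14.1% of all genes). Iigp1, Tgtp1, Tgtp2, Gbp2, Gbp6 and Gbp10 had no value there. Of the 16 GTPases 6 had a value, and 0 of these were at least 2-fold higher. Kit and genotype are confounded there as for Dnmt3a, so whether the epithelium difference recurs in these neurons was not tested.

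Class I antigen presentation genes, which interferon also induces, were higher in KO mainly with water. Of 15 tested, 8 were higher in both treatments (20.2% of all genes) and 1 lower in both, and the median was 0.81 with water and 0.00 with odor. The heavy chain H2-D1 was 213 and 209.6 in KO, 131 and 192 in Het, and 59.4 and 169 in WT (1.07 ± 0.37). H2-K1 was 46.2 and 38 in KO, 28.5 and 32.9 in Het, and 16.8 and 30.1 in WT (0.88 ± 0.34). Tap1, a peptide transporter subunit, was 7.46 and 7.94 in KO, 6.02 and 6.57 in Het, and 2.13 and 5.36 in WT (1.06 ± 0.48). In these 3 both KO libraries lay above both WT libraries and WT water was lowest. H2 genes are close copies of each other, so their counts are uncertain.

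Immune cell markers were compared beside these genes. Of 17 macrophage markers 10 were higher in KO in both treatments (20.2% of all genes) and 0 lower in both, with medians of 0.57 with water and 0.27 with odor. Their summed value was 1986 and 4443 in KO, 2491 and 2520 in Het, and 1302 and 1705 in WT. Lyz2, a lysozyme of macrophages and neutrophils, was 1254 and 3626 in KO, 1642 and 1463 in Het, and 844 and 1114 in WT (1.14 ± 0.41) and made up most of that sum. Cx3cr1, the fractalkine receptor, was 33.8 and 28.6 in KO, 34.96 and 51.5 in Het, and 21.9 and 14.5 in WT (0.78 ± 0.35). The defining markers Cd68 and Csf1r were higher in KO with water and lower with odor, as in Cd68 at 119 and 43.3 in KO, 119.6 and 171 in Het, and 77.4 and 80.8 in WT.

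Of 26 T and NK cell markers 9 were tested, and Cd3e, Cd8a and Gzma were not among them. Ccl5, a chemokine of activated T cells, was 60.4 and 15.9 in KO, 13.2 and 8.69 in Het, and 5.55 and 3.28 in WT, from 57 and 17 reads in KO and 7 and 4 in WT, and had the order of the GTPases. The summed value of the 9 was 102 and 51.6 in KO, 72.2 and 70.6 in Het, and 50.4 and 30.4 in WT. Ccl5 alone made up 60.4 of the 102 in KO water. Of the 9, 3 were higher in both treatments (20.2% of all genes) and 1 lower in both (21.0%). With water 5 were higher in KO and 4 lower. B cell markers lay on the other side, mainly with odor, with 0 of 8 higher in both and 5 lower in both (21.0% of all genes). Their medians were -0.16 with water and -1.36 with odor, and with water 3 were higher in KO and 5 lower. Of the 8, 0 had a mean of at least 50 reads. Cd79a, a chain of the B cell receptor complex, was 33.2 and 13.1 in KO, 53.1 and 51.1 in Het, and 52.9 and 39.9 in WT (-1.12 ± 0.36). These values came from 38 and 17 reads in KO and 81 and 59 in WT. The part of these cells in the interferon difference was not tested.

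Outside the interferon list and leaving out receptors, 7 genes with a mean of at least 50 reads were at least 2-fold higher in both treatments. Rec8, a cohesin subunit of meiosis, was 31.8 and 25.97 in KO, 29.97 and 5.35 in Het, and 8.09 and 4.71 in WT (2.13 ± 0.57). Irak3, an inhibitor of Toll-like receptor signaling, was 13.2 and 13.9 in KO, 7.18 and 9.74 in Het, and 2.51 and 6.34 in WT (1.63 ± 0.44). In both genes the KO libraries lay above the WT libraries, and Het water lay between KO and WT. Trim12a, related to the antiviral restriction factor Trim5, was 14.2 and 28.5 in KO, 12.96 and 1.21 in Het, and 0.816 and 9.67 in WT (2.50 ± 1.33). The gene listed as Rps4y2, named Rps4l in the reference, a copy of ribosomal protein S4, was 62.1 and 158 in KO, 93.8 and 47.4 in Het, and 20.2 and 36.5 in WT (1.85 ± 0.55). Trim12a and Rps4y2 have close copies, so these values are uncertain. Car6, a secreted carbonic anhydrase, was 188 and 1355 in KO, 198 and 233 in Het, and 9.50 and 427 in WT and was also far higher with odor than with water in KO and in WT. The other 2 were Myh1, given above, and Myh2, a further muscle myosin. Myh2 was 1.78 and 14.5 in KO, 0.891 and 0.178 in Het, and 0.303 and 0.157 in WT. Both myosins were high in KO odor. Of 8 tested skeletal muscle genes 7 were higher in KO in both treatments (20.2% of all genes), against 37 of the 55 interferon-induced genes. In 7 of the 8 both KO libraries lay above both WT libraries (12.4% of all genes). The muscle medians were 0.74 with water and 4.08 with odor. Avp, the vasopressin gene, was 121 and 121 in KO, 58.1 and 55.5 in Het, and 39.6 and 34.1 in WT (1.71 ± 0.21) with a mean of 40.25 reads, and is named here after its values were seen. Its genotypes did not overlap and stood in the order KO, Het, WT in each treatment.

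Of the genes at least 2-fold lower in KO in both treatments (0.37% of all genes), 8 had at least 50 reads and were not receptors. Zdbf2, an imprinted gene expressed from the paternal copy, was 0.676 with water and 1.08 with odor in KO, 1.798 and 2.3 in Het, and 5.05 and 3.33 in WT (-1.76 ± 0.54), from 11 and 20 reads in KO and 110 and 70 in WT. Its libraries were ordered KO, Het, WT in each treatment, without overlap between genotypes. Agt, which encodes angiotensinogen, was 53.8 and 56.98 in KO, 199 and 121 in Het, and 146 and 118 in WT (-1.24 ± 0.25). Lrrc27, a leucine-rich repeat gene, was 24.96 and 28.4 in KO, 58.6 and 62.3 in Het, and 51.6 and 61.5 in WT (-1.07 ± 0.22). In Agt and Lrrc27 both KO libraries were below all others, and Het was at or above WT with odor. Metrn, a secreted factor of glia, was 18.95 and 10.03 in KO, 39.6 and 45.9 in Het, and 44.9 and 28.9 in WT (-1.35 ± 0.35). Sepw1, a selenoprotein, was 655 and 458 in KO, 909.8 and 2118 in Het, and 1705 and 1375 in WT (-1.48 ± 0.44). Both were lowest in the KO libraries. Muc5ac, a gel-forming airway mucin, was 10.7 and 4.37 in KO, 2.32 and 2.87 in Het, and 74.8 and 17.2 in WT (-2.303 ± 0.62), low in KO and Het and highest in WT water. Ranbp3l was 23.1 and 14.9 in KO, 42.5 and 20.9 in Het, and 47.1 and 32.1 in WT (-1.05 ± 0.28). Sars2, the mitochondrial seryl-tRNA synthetase, was 23.9 and 12.1 in KO, 29.5 and 32.8 in Het, and 50.1 and 25.4 in WT (-1.05 ± 0.38). In Sars2 KO water and WT odor lay close together. None of the 8 passed limma's test (adjusted p = 1).

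**Figure D3:**
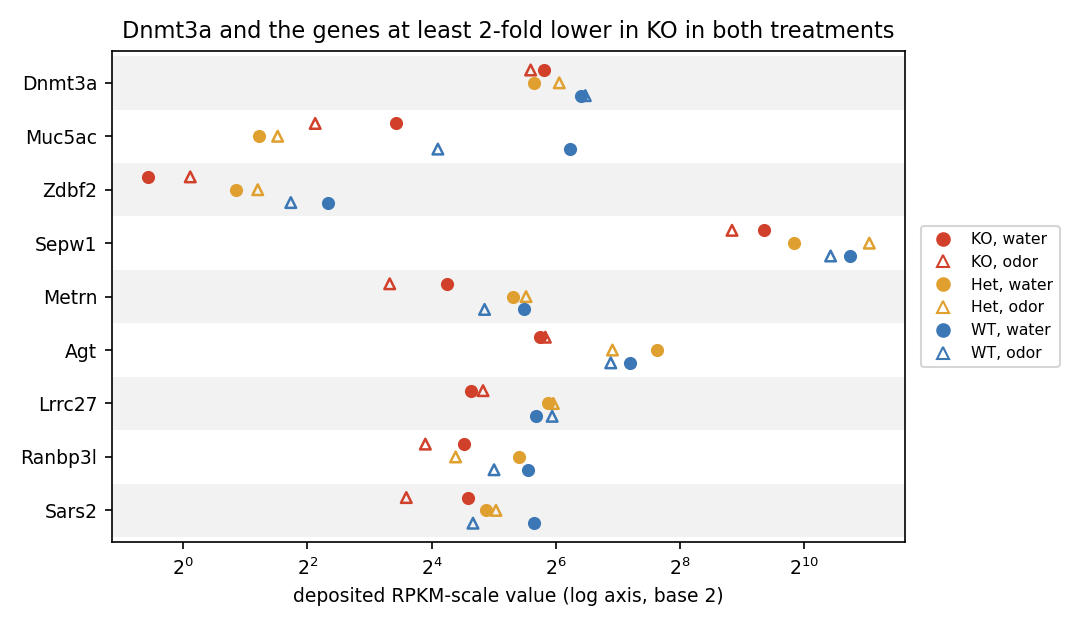
Deposited RPKM-scale values (log axis) of Dnmt3a and the 8 genes with at least 50 reads that were at least 2-fold lower in KO in both treatments, 1 point per library, by genotype and treatment. KO lies below WT of the same treatment in every gene, as the choice of genes sets, and Het lies with WT in Lrrc27.

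Het stood between KO and WT in more of these genes with water than with odor. Of the 18 higher genes it lay between in 16 with water and in 10 with odor, and of the 8 lower genes in 5 and 2. These genes were chosen for a wide gap between KO and WT. That choice makes a position between them more likely, and more so in the treatment where the gap is wider. The median of Het over WT for the 18 was 0.96 with water and 0.04 with odor. With single libraries, a difference between treatments cannot be told apart from one between libraries. The Het libraries also differed from KO and WT in lower Omp, higher brain gene values and higher Tet3. Whether the position of Het follows from its genotype was not tested.

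Ribosomal protein genes were higher in KO by a small amount. Of 79 genes 48 were higher in both treatments (20.2% of all genes), 2 were lower in both, and 46 had both KO libraries above both WT libraries (12.4% of all genes). The median was 0.31 with water and 0.11 with odor. Rps19, a subunit of the small ribosomal particle, was 176 and 177 in KO, 162 and 181 in Het, and 128 and 140.2 in WT (0.39 ± 0.17). Ribosomal protein genes have many processed copies, so single values are uncertain. Nuclear genes of oxidative phosphorylation had no common direction, with 15 of 88 higher in both (20.2% of all genes) and 19 lower in both (21.0%).

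Genes of neurons in formation were lower in KO by a small amount. Of 25 immature neuron markers 14 were lower in both treatments (21.0% of all genes) and 1 higher in both, with medians of -0.18 with water and -0.13 with odor. Stmn1, a microtubule-destabilizing protein of growing axons, was 208 and 134.2 in KO, 252 and 325 in Het, and 326 and 204 in WT (-0.63 ± 0.30). Gap43, the defining marker, was 347 and 261 in KO, 405 and 591 in Het, and 507 and 302 in WT (-0.38 ± 0.33). KO was below WT within each treatment, but KO water lay above WT odor in both genes. Of 26 genes of dividing cells 11 were lower in both (21.0% of all genes) and 4 higher in both (20.2%). Ccna2, a cyclin of the dividing cell, was 47.4 and 39.9 in KO, 66.4 and 86.02 in Het, and 65.03 and 59.3 in WT (-0.51 ± 0.25), with both KO libraries lowest.

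Gene families known as targets of DNA methylation were lower in KO or had no common direction. Clustered protocadherins, cell-surface proteins by which neurons tell themselves from others, were lower in both treatments in 13 of 24 (21.0% of all genes) and higher in 2, with medians of -0.19 with water and -0.27 with odor. Pcdhb5 was 14.4 and 13.7 in KO, 13.4 and 11.8 in Het, and 22.6 and 21.5 in WT (-0.63 ± 0.31), and Pcdhb8 was 5.44 and 3.60 in KO, 6.17 and 6.21 in Het, and 10.97 and 13.9 in WT (-1.38 ± 0.42). In both genes all KO and Het libraries lay below the WT libraries. Pcdhb2 was 33.95 and 49.8 in KO, 29.9 and 22.01 in Het, and 27.8 and 26.3 in WT (0.60 ± 0.33), on the other side. Of 32 imprinted genes 13 were lower in both (21.0% of all genes) and 4 higher in both (20.2%). Mest, a paternally expressed hydrolase-like gene, was 67.2 and 56.2 in KO, 88.3 and 88.7 in Het, and 147 and 89.98 in WT (-0.896 ± 0.24), with both KO libraries lowest. Of 8 tested germline genes 3 were higher in both (20.2% of all genes) and 1 lower (21.0%). Tdrd12, a factor of the germline small RNA pathway, was 6.19 and 5.83 in KO, 6.04 and 2.90 in Het, and 2.62 and 2.08 in WT (1.198 ± 0.48), with a mean of 23 reads. Brdt and Piwil2, which had more reads, were lower in KO with water and higher with odor. Their differences were -0.54 and 0.58 in Brdt and -0.90 and 0.41 in Piwil2.

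**Figure D4:**
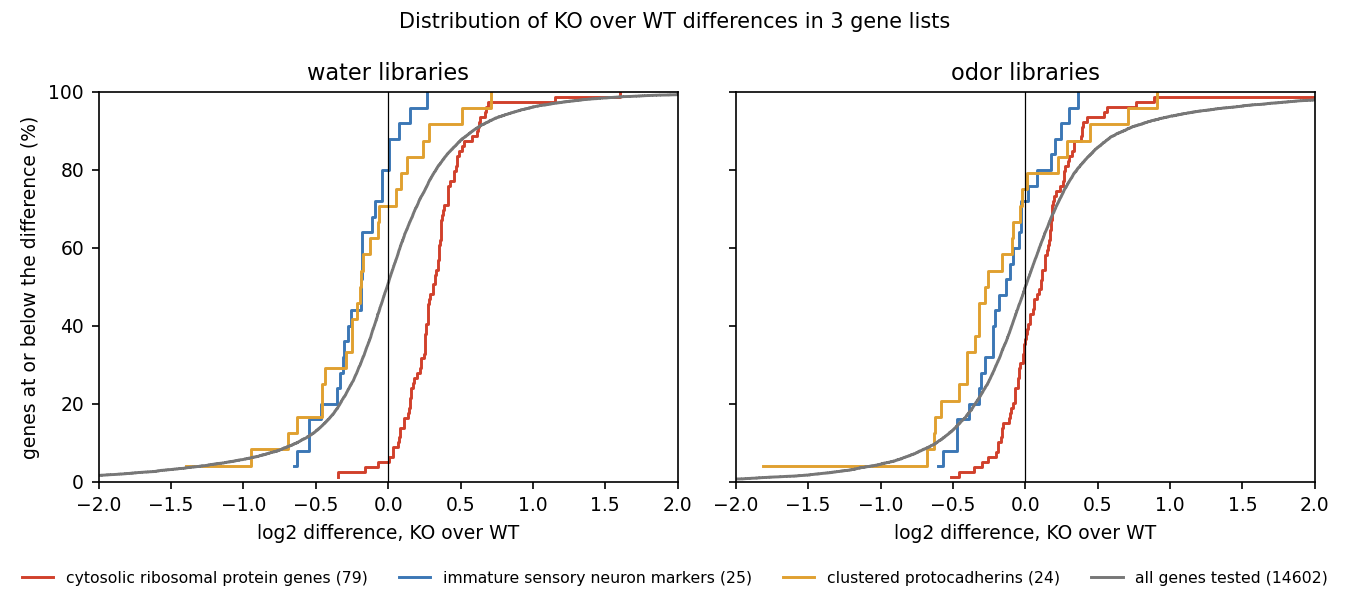
Cumulative share of genes (vertical axis, percent) against the KO over WT log2 difference (horizontal axis), for the water libraries and the odor libraries in separate panels. Ribosomal protein genes lie to the right of all genes by their medians of 0.31 with water and 0.11 with odor, and the immature neuron markers to the left at -0.18 and -0.13.

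Markers of the mature neurons had no common direction, with 4 of 27 higher in KO in both treatments (20.2% of all genes) and 4 lower in both (21.0%). Their medians were -0.21 with water and 0.28 with odor. The 579 tested odorant receptors also lay on opposite sides, at -0.48 with water and 1.27 with odor, while 137 were higher in both treatments (20.2% of all genes) and 68 lower in both (21.0%). Olfr533, an odorant receptor, was 87.1 and 101 in KO, 23.02 and 22.7 in Het, and 35.3 and 50.5 in WT, and its KO libraries lay above the other 4. Olfr299 was 52.5 and 55.4 in KO, 42.2 and 24.7 in Het, and 147 and 77.3 in WT, with both KO libraries below both WT libraries. Of 18 microvillous cell markers 6 were higher in both (20.2% of all genes) and 2 lower, with medians of 0.36 with water and -0.07 with odor. Foxi1, a transcription factor of ionocytes, was 107 and 196 in KO, 113 and 168 in Het, and 69.4 and 106 in WT (0.75 ± 0.19), with KO above WT within each treatment. Moxd2, a monooxygenase-like gene, was 149.8 and 219.6 in KO, 97.1 and 201 in Het, and 80.8 and 147 in WT (0.73 ± 0.20).

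By list medians, genes of the stress and activity responses differed mainly in the odor libraries. Of 17 heat shock chaperones 7 were lower in KO in both treatments (21.0% of all genes) and 0 higher in both, with medians of 0.06 with water and -1.18 with odor. Hspa1a, an inducible Hsp70, was 123.1 and 256 in KO, 327 and 4808 in Het, and 69.5 and 8255 in WT, so WT odor and Het odor stood apart from the other 4 libraries. Of 34 immediate early genes, which neurons switch on when they fire, 15 were lower in both (21.0% of all genes) and 3 higher in both (20.2%). Their medians were -0.04 with water and -0.47 with odor. Btg2 was 58.5 and 198 in KO, 85.9 and 333 in Het, and 97.4 and 394 in WT (-0.86 ± 0.18), and Egr1 was 27.8 and 399 in KO, 63.03 and 606 in Het, and 44.8 and 639 in WT (-0.68 ± 0.22). Both were higher with odor than with water in all genotypes, with KO below WT in each treatment.

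**Figure D5:**
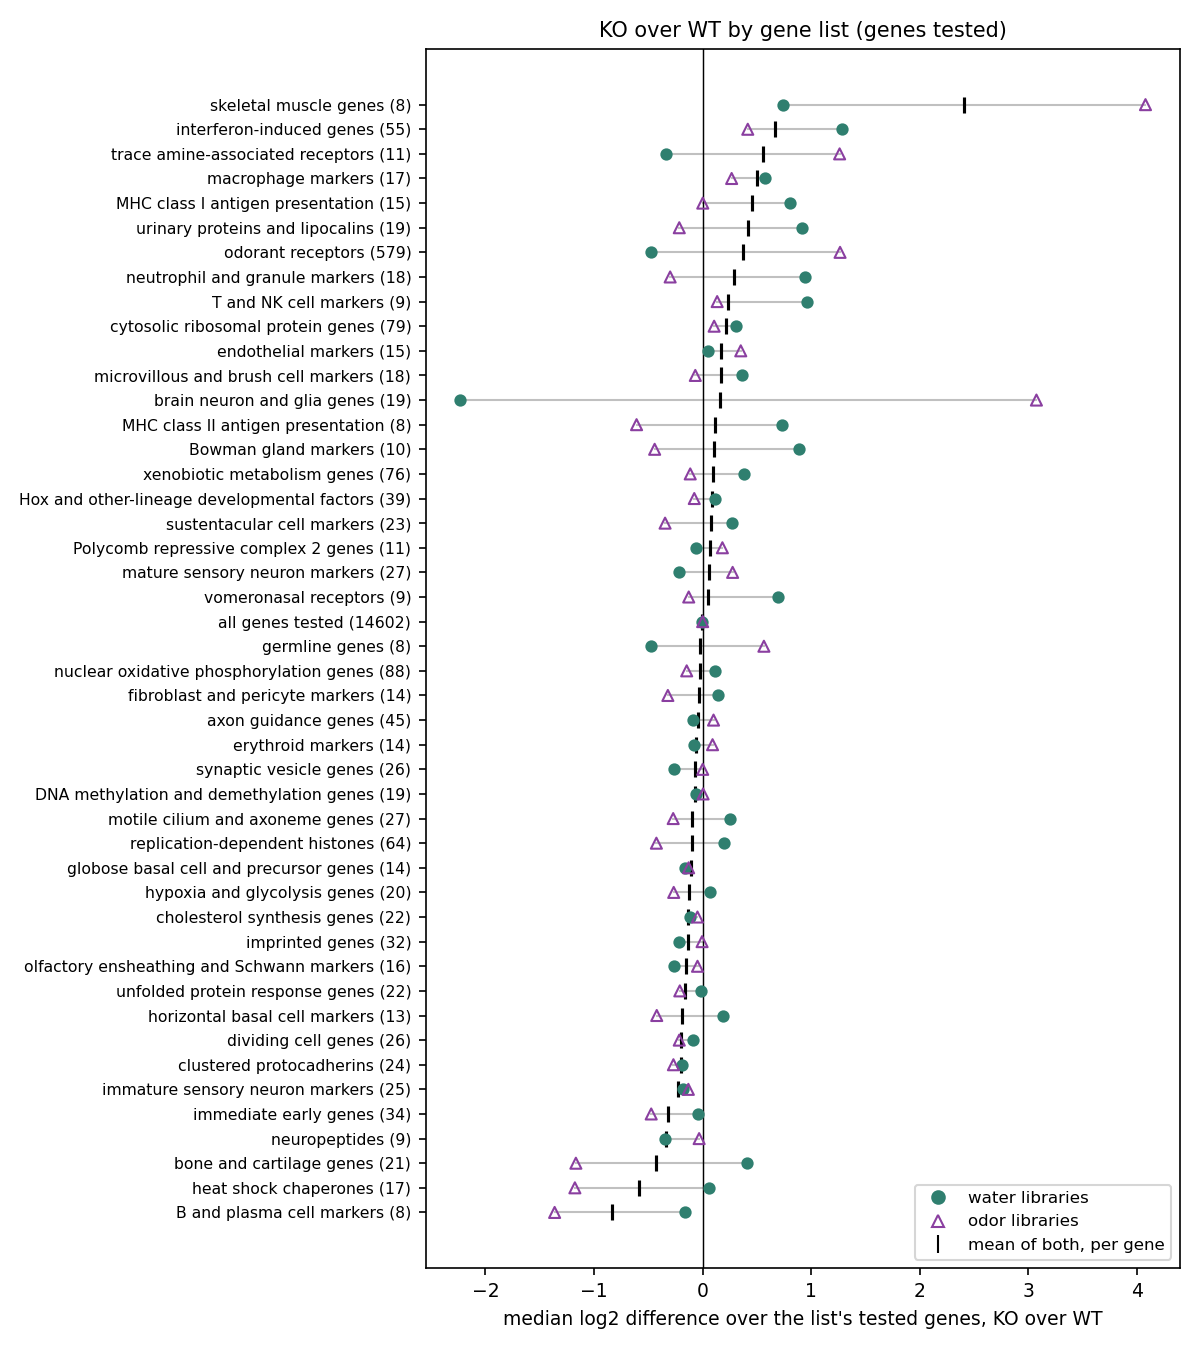
Median KO over WT log2 difference of each gene list with at least 8 tested genes (horizontal axis), with water, odor and the mean of both marked separately for each list. Interferon-induced genes lie at 1.28 with water and 0.42 with odor, and the lists of odorant receptors at -0.48 and 1.27 and of brain genes at -2.23 and 3.07 change side between treatments.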

How the data were processed

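RNA of whole MOE was sequenced from 6 libraries, made with the NuGEN Encore Complete system per the labels' protocols. The deposited values are on the RPKM scale, made by the authors. The submitters' processing notes name Bowtie2 2.1, STAR 2.3.0, Picard 1.64, featureCounts, DESeq and the builds mm9 and NCBIM37, with no role for each. Whole reads were recovered from the deposited RPKM steps for 14613 genes (100.0%, tolerance 1e-05). Recovered depth was 9410063 and 11384079 reads in KO with water and odor, 13316758 and 17639584 in Het, and 12472278 and 13495341 in WT.

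Genes at or above 0.5 in at least 2 libraries were kept (14602). Limma 3.58.1 in R 4.3.3 was fitted to log2(value + 0.5) with treatment and genotype as terms over the 6 libraries, leaving 2 residual degrees of freedom, with Benjamini-Hochberg adjustment over all genes. The added 0.5 understates differences of low genes. The fit and the recovery of reads were tested on simulated data, and voom on the recovered reads was an alternative. Named genes were Dnmt3a, then in each direction up to 12 genes other than receptors with the smallest unadjusted p among those at least 2-fold apart in both treatments with a mean of at least 50 reads, and in each list the members farthest from WT on the same side in both treatments. Genes in the text beyond that rule were chosen after their values were seen. The members and lists were chosen with earlier results of these data known, and the brain and tooth lists and the lists of interferon pathway genes by role, which overlap the interferon-induced list but also hold other genes, were added later. Values of sorted mature sensory neurons, also deposited on the RPKM scale, are 1 pooled column per genotype, set beside the others without a test. A comparison of promoter composition was void, because 79.4% of tested genes and 69.1% of interferon-induced genes matched a promoter window, under the 80% needed.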

Additional observations from a re-analysis of the deposited data

Results flagged for a closer look

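In 10 gene lists with at least 8 tested genes the median KO over WT log2 difference was at least 0.25 in size on opposite sides of 0 in the 2 treatments. The difference between treatments was not tested, since each treatment has 1 KO and 1 WT library. Higher in KO with water and lower with odor were genes of MHC class II (0.73 with water, -0.61 with odor), neutrophil and granule markers (0.94 and -0.3), bone and cartilage genes (0.41 and -1.17), sustentacular cell markers (0.27 and -0.35), Bowman gland markers (0.89 and -0.44) and motile cilium genes (0.25 and -0.27). Lower in KO with water and higher with odor were odorant receptors (-0.48 and 1.27), trace amine-associated receptors (-0.33 and 1.26), germline genes (-0.47 and 0.56) and genes of brain neurons and glia (-2.23 and 3.07).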

How the results depend on the processing

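No paired analysis was possible because each genotype has 1 library per treatment and the labels give no replicate numbers beyond that. Genes at least 2-fold higher in KO in both treatments numbered 78, with 5 at a mean of at least 100 reads, 255 at a fold of 1.5 and 24 at a fold of 3. The genes lower numbered 54, with 5, 216 and 13 under the same settings. Without a KO or WT library only 1 treatment can be compared, so the counts ran from 564 (without KO odor or WT odor) to 910 (without KO water or WT water) higher and from 659 to 839 lower; without a Het library they stayed at 78 and 54. The interferon median of 0.67 was 1.28 in the water libraries alone, and ran from 0.42 to 1.28 when a KO or WT library was left out. The immature neuron median of -0.23 was -0.18 with water alone and -0.13 with odor alone, and ran over the same values when a KO or WT library was left out, against -0.23 without a Het library. No setting gave a gene past a limma adjusted p of 0.05. Of 779 list medians under other settings, 60 moved by more than the spread between the water and odor medians, most of them when 1 treatment or library was left out. That spread is wide for lists that change side between treatments, so a small count says little of them. At a mean of at least 100 reads the median of nucleic acid sensors was 0.18 (0.50 as reported), of endothelial markers -0.08 (0.17), of globose basal cell genes -0.21 (-0.10), of oligoadenylate synthetases and Ifit genes 0.09 (0.80) and of odorant receptors 0.86 (0.38). The interferon median was also lower at a mean of at least 100 reads, at 0.50 (0.67 as reported). With interferon members at 50 reads or more, and without Tgtp1, Tgtp2, Gbp6 and Gbp10, both chosen after seeing the data, the interferon median was 0.60 in each case. Depth limits genes with few reads, such as Tgtp1 in WT water.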

Other observations

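Tet3, an enzyme that oxidizes methylated cytosine, was 190.2 with water and 173 with odor in KO, 906 and 2235 in Het, and 167 and 244 in WT. The 2 Het libraries stood apart from the other 4.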
